A study of Mus musculus with 18 samples.

Results

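DN1e thymocytes were compared with DN1 ckit+ thymocytes, 2 sorted populations from the earliest stage of T cell development in the mouse thymus. The comparison rests on all libraries that carry either name, 3 of DN1e and 3 of DN1 ckit+, which are 6 of the 18 libraries in the series. Both populations came from thymus of C57BL/6 mice at postnatal day 10, and the labels give no genotype, allele or treatment that separates them. About 10000 cells of a population were sorted into lysis buffer, total RNA was amplified by the NuGEN Ovation system, and 1 ng of the product was made into a library for Illumina HiSeq sequencing. The other 12 libraries, of DN1ab, DN1d, ImmV2, DN2 and DN4 cells, shared the estimate of the spread and serve below as a reference for levels. The submitters speak of biological replicates but no label ties a library to an animal. The p-values thus set a difference against the spread of libraries within populations, estimated over all 18, which may include technical noise.

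Double-negative (DN) thymocytes carry neither CD4 nor CD8. Their first stage, DN1, is divided by the stem cell factor receptor KIT and the surface protein CD24. KIT-positive DN1 cells hold the early T-cell progenitors, which can still form other blood lineages, whereas DN1e is the usual name of a fraction with little KIT and little CD24, whose T-lineage potential is poor in cultures. The labels do not spell out the gates. KIT thus belongs to the definition of at least one population, and its transcript was read as a check of the labels and not as a finding.

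The deposited values were log2 FPKM, a read level per length of transcript and per amount sequenced, for 34082 gene symbols, and the table holds no counts, which leaves library depth unknown. The lowest value in every library is 0.01 FPKM, carried by 39.1% to 42.0% of rows in DN1e and by 34.7% to 40.0% in DN1 ckit+. At the other end, the 10 highest rows held 81.8% to 82.3% of all FPKM in the DN1e libraries and 81.5% to 81.9% in the DN1 ckit+ libraries. Across genes, Spearman correlations were 0.268 to 0.276 among the DN1e libraries, 0.349 to 0.363 among the DN1 ckit+ libraries and 0.206 to 0.232 between them, and genes are not independent replicates. Of 14 genes used by every cell, none was called, beside 0.693% of all genes tested. Their summed level was 136 to 312 FPKM in DN1e and 65.2 to 994 FPKM in DN1 ckit+. A gene at 0.01 FPKM is said below to be listed at the minimum, which may be a failed estimate. Where all 3 libraries of one population were so listed, the adjusted p is given with no log2 difference.

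The Kit transcript followed the labels in direction. Its level was 0.660, 0.527 and 12.2 FPKM in DN1e 1, 2 and 3, against 95.6, 49.9 and 141 FPKM in DN1 ckit+ 1, 2 and 3. All DN1e values lay below all DN1 ckit+ values, with DN1e 3 the highest of its population. The log2 difference of -4.79 ± 1.18 (SE) missed the threshold (adjusted p = 0.0844, limma) and passed it without DN1e 3 (adjusted p = 0.0240). Cd24a, which encodes CD24, was at 347, 0.01 and 354 FPKM in DN1e and at 0.01, 26.7 and 53.8 FPKM in DN1 ckit+, and the groups overlapped (adjusted p = 0.850). In DN1e 1 and 3 Cd24a was above every DN1 ckit+ value, unlike the little CD24 in the usual meaning of DN1e. Cd44, the adhesion receptor that marks DN1 cells, reached at most 0.0701 FPKM in 5 of the 6 libraries and 45.0 FPKM in DN1 ckit+ 3. Il2ra, the CD25 gene that comes on after DN1, was at 3.09, 6.49 and 0.102 FPKM in DN1e and at 2.52, 5.22 and 5.21 FPKM in DN1 ckit+, with overlapping groups.

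DN1e and DN1 ckit+ differed at 170 of the 24525 genes tested, 108 higher and 62 lower in DN1e. A gene was called when limma's Benjamini-Hochberg adjusted p was under 0.05 and the absolute log2 difference, on the log2(FPKM + 1) scale, was at least 1. The called shares were 0.440% higher and 0.253% lower, 0.693% in all, and 2641 genes had an unadjusted p under 0.05. All 170 called genes had DN1e values entirely above or entirely below those of DN1 ckit+, an order that 7.13% (above) and 9.09% (below) of all tested genes also showed. The genes higher in DN1e included C1qa and Cfp of complement, the Fc receptor adaptor Fcer1g, lysozyme, cathepsin B and the innate lymphoid genes Id2 and Cxcr6. Those lower in DN1e included Sri, Hmgb3 and Gpr56. No member of the early progenitor list passed the test, though DN1e lay wholly below for 6 of its 18 tested genes. The balance between the directions was not firm. Without DN1e 1, 2 and 3 the higher and lower calls were 242 and 50, 210 and 46, and 290 and 61, and without DN1 ckit+ 1, 2 and 3 they were 58 and 66, 64 and 84, and 54 and 72. They were 48 and 51 on the deposited values with no pseudocount, and 26 and 26 when only the 6 libraries of the comparison entered the fit. In that fit 44 of the 60 called genes named here missed the threshold. The 16 that passed it were Gjc3, Fcer1g, Fgf11, Pcdh20, Lhx4, Cfp, C1qa, Slitrk2, Zc3h10, Ctsb, Sp100, Sri, Hmgb3, Acat3, Slc9a7 and Rpl36-ps2.

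**Figure D1:**
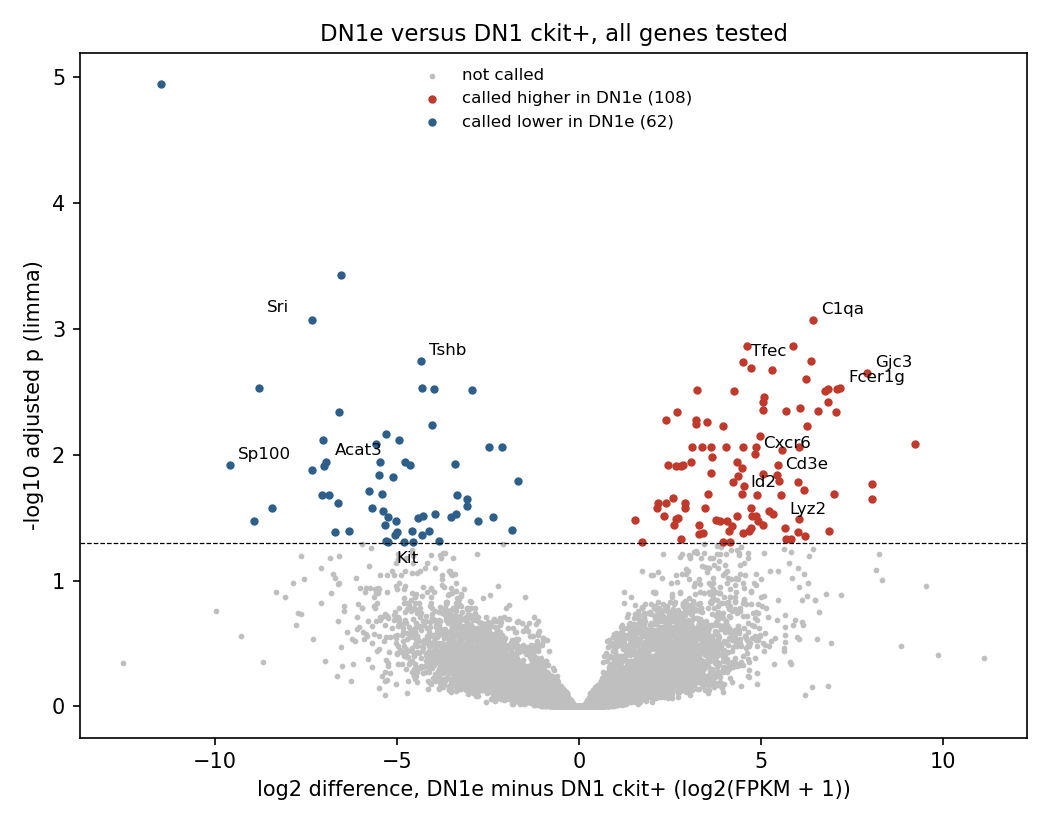
Each point is 1 of the 24525 genes tested, with the log2 difference of DN1e minus DN1 ckit+ on the horizontal axis and -log10 of limma's adjusted p on the vertical axis, the dashed line marking an adjusted p of 0.05. The 108 genes called higher in DN1e are red, the 62 called lower are blue, and Kit lies just under the line.

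C1qa encodes one of the 3 chains of C1q, the starter protein of the classical complement pathway, which tissue macrophages make. Its DN1e levels were 108, 79.9 and 74.8 FPKM, and it was listed at the minimum in all 3 DN1 ckit+ libraries (adjusted p = 0.000860, limma). The other 12 libraries had 1.12 FPKM or less, so the 3 DN1e libraries stood above all 15 others. Cfp, which encodes properdin, the stabiliser of the alternative complement pathway, was at 197, 166 and 149 FPKM in DN1e and at 0.454, 0.922 and 1.00 FPKM in DN1 ckit+. The groups were far apart and even within themselves (log2 difference 6.58 ± 1.00, adjusted p = 0.00452). Lyz2, lysozyme of phagocytes, was at 406, 290 and 226 FPKM in DN1e against 0.01, 16.5 and 13.4 FPKM in DN1 ckit+ (log2 difference 5.56 ± 1.08, adjusted p = 0.0211). Its call ended without DN1 ckit+ 1 (adjusted p = 0.0863), the library listed at the minimum.

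The other C1q chains did not pass the test. C1qb was at 0.01, 409 and 325 FPKM in DN1e but listed at the minimum throughout DN1 ckit+ (adjusted p = 0.188), high in the same direction as C1qa in DN1e 2 and 3 but not in DN1e 1, without which it passed (adjusted p = 0.00176). C1qc was at 431, 23.2 and 5.35 FPKM in DN1e and at 78.2, 53.1 and 48.0 FPKM in DN1 ckit+, so its groups overlapped (adjusted p = 1). A macrophage that makes C1q carries all 3 chains, so these values are given together. The receptor Csf1r, needed by macrophages, reached at most 0.0837 FPKM in DN1e and 1.23 FPKM in DN1 ckit+. Emr1, the gene of the macrophage marker F4/80, was at most 0.0262 FPKM in DN1e and 0.0489 FPKM in DN1 ckit+ and fell under the filter.

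Of the 18 tested genes of the monocyte and macrophage list, 2 rose, Lyz2 and C1qa, and 16 did not pass. DN1e lay wholly above DN1 ckit+ for 5 of them and wholly below for none, and the median log2 difference was 1.11. Over all genes tested 0.440% were called higher, 7.13% lay wholly above and 9.09% wholly below, and the median was 0. Ctss, the lysosomal protease cathepsin S, was at 137, 151 and 60.3 FPKM in DN1e and at 6.36, 9.11 and 9.28 FPKM in DN1 ckit+ (adjusted p = 0.105). It passed with a pseudocount of 5 FPKM (adjusted p = 0.0184), with no filter (0.0443) and with no trend in eBayes (0.0312). Ccr2, the receptor that draws monocytes to the chemokine CCL2, was at 13.2, 13.8 and 12.2 FPKM versus 0.228, 0.347 and 6.30 FPKM (adjusted p = 0.252). Both genes kept the groups apart. The list's summed level was 984 to 2333 FPKM in the DN1e libraries and 138 to 180 FPKM in the DN1 ckit+ libraries. In bulk libraries, more cells of a type and more RNA per cell cannot be told apart, and the part of these markers in the other results was not tested.

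The gene with the largest difference among Fc receptor and adaptor genes was Fcer1g, the signalling chain that activating Fc receptors and several innate receptors share. It was at 700, 278 and 371 FPKM in DN1e libraries and at 0.0798, 7.63 and 1.62 FPKM in DN1 ckit+ libraries. No values overlapped, and no library outside DN1e exceeded 37.3 FPKM (log2 difference 7.17 ± 1.00, adjusted p = 0.00296, limma). It was the 1 called gene among 10 tested in its list, beside 0.440% of all genes tested called higher. The summed level of that list was 333 to 740 FPKM in DN1e and 3.68 to 31.8 FPKM in DN1 ckit+. Tyrobp, which encodes the related adaptor DAP12, was at 22, 42.3 and 4.88 FPKM in DN1e and at 0.01, 2.25 and 2.08 FPKM in DN1 ckit+ (adjusted p = 0.245). Ms4a2, the beta chain of the high-affinity IgE receptor of mast cells and basophils, rose from 0.265, 0.01 and 0.464 FPKM in DN1 ckit+ to 23.4, 16.6 and 27.1 FPKM in DN1e (log2 difference 4.22 ± 0.89, adjusted p = 0.0370). Ms4a2 was the only called gene of 7 in the mast cell and basophil list, beside the same 0.440%. In that list the mast cell protease Mcpt4 was at 1.58 FPKM or less in DN1e. Leaving out any 1 DN1 ckit+ library ended the call of Ms4a2 (adjusted p = 0.0888 to 0.112).

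The next genes were picked from the called ones after their values had been seen, and their count says nothing of any group. Ctsb, the lysosomal protease cathepsin B, was at 219, 233 and 124 FPKM in DN1e and at 3.31, 1.93 and 2.74 FPKM in DN1 ckit+ (log2 difference 5.69 ± 0.87, adjusted p = 0.00452). Mitf and Tfec encode related transcription factors of the MiT family, whose members control lysosomal genes. Tfec was at 18.4, 31.7 and 18.6 FPKM in DN1e and at most 0.0267 FPKM in DN1 ckit+ (log2 difference 4.51 ± 0.58, adjusted p = 0.00185), and no other library exceeded 0.454 FPKM. With only the 6 libraries in the fit its adjusted p was 0.120. Mitf was at 232, 211 and 2.06 FPKM in DN1e and at most 0.0683 FPKM in DN1 ckit+ (adjusted p = 0.0469), with DN1e 3 far under the other two. Cd63, a tetraspanin of late endosomes, was at 82.8, 84.9 and 25.1 FPKM versus 3.22, 2.08 and 1.64 FPKM (adjusted p = 0.0404). The metal transporter gene Slc11a1, which acts in phagosomes, was at 36.8, 22.6 and 15.6 FPKM versus 0.217, 0.01 and 0.01 FPKM (adjusted p = 0.0416). Without DN1e 1 or DN1e 2, or without any 1 DN1 ckit+ library, the calls of Mitf, Cd63 and Slc11a1 ended, at adjusted p of 0.0964 to 0.123, 0.0813 to 0.122 and 0.0557 to 0.117. Reads of Ctsb cannot be told apart from those of the overlapping gene Fdft1 where they overlap, since the strand of the libraries is not stated.

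Clec7a and the 5 genes after it were likewise picked from the called ones. Clec7a, the fungal glucan receptor Dectin-1, was at 13.3, 3.52 and 11.9 FPKM in DN1e and at most 0.0245 FPKM in DN1 ckit+ (log2 difference 3.21 ± 0.51, adjusted p = 0.00567). Tlr8, an endosomal RNA sensor, was at 8.53, 3.33 and 6.03 FPKM in DN1e and at most 0.0206 FPKM in DN1 ckit+ (log2 difference 2.71 ± 0.42, adjusted p = 0.00456). Among the other 12 libraries neither gene exceeded 0.104 FPKM. The monocyte chemokine gene Ccl2 was at 5.06, 3.42 and 4.52 FPKM in DN1e but listed at the minimum throughout DN1 ckit+ (adjusted p = 0.00528). Hmox1, the haem-degrading enzyme, was at 10.8, 2.80 and 10.5 FPKM versus 0.0356, 0.01 and 0.150 FPKM (adjusted p = 0.0268), and Csf1, the growth factor of macrophages, at 12.6, 11.3 and 20.1 FPKM versus 0.0202, 0.0615 and 0.0179 FPKM (adjusted p = 0.0338). Both calls ended without any 1 DN1 ckit+ library (adjusted p = 0.0746 to 0.0882 for Hmox1 and 0.0915 to 0.104 for Csf1). Ear1, an eosinophil-associated ribonuclease gene, was at 26.6, 29.4 and 17.4 FPKM in DN1e and at most 0.0611 FPKM in every other library (log2 difference 4.61 ± 0.56, adjusted p = 0.00138). When only the 6 libraries were fitted, adjusted p was 0.293 for Clec7a, 0.307 for Tlr8, 0.306 for Ccl2 and 0.115 for Ear1. Ear1 has near-identical relatives, so which member of its family the reads came from is uncertain. Of 8 tested granulocyte genes none was called, beside 0.693% of all genes tested. Their summed level was 1.46 to 54.8 FPKM in DN1e and 5.30 to 66.7 FPKM in DN1 ckit+.

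**Figure D2:**
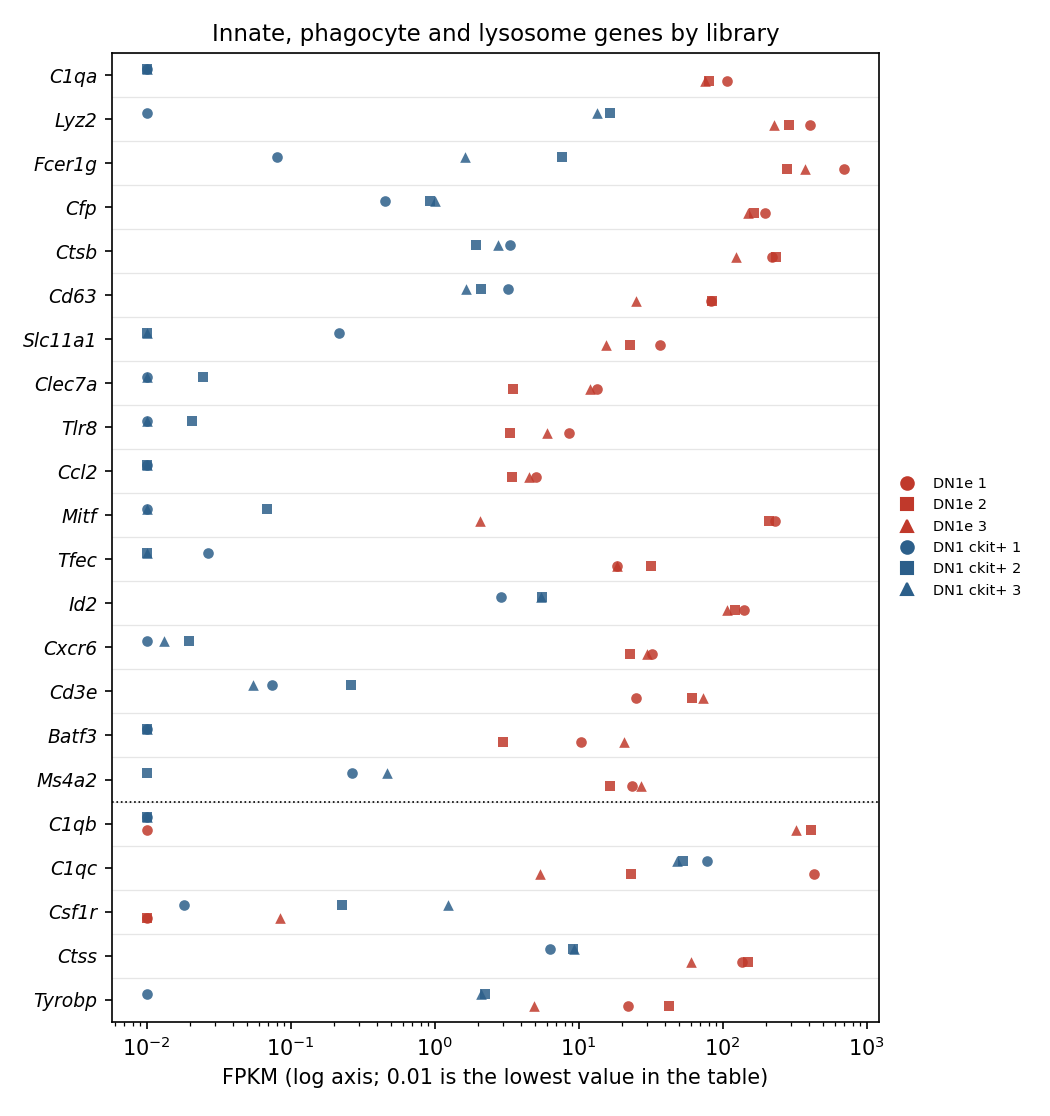
FPKM on a log axis for innate, phagocyte and lysosome genes in each DN1e (red) and DN1 ckit+ (blue) library, 1 point per library, with genes that passed the test above the dotted line and others below it. C1qa is listed at 0.01 FPKM in all DN1 ckit+ libraries and at 74.8 to 108 FPKM in DN1e, C1qb is as low as in DN1 ckit+ in DN1e 1 alone, and the groups overlap for C1qc and Csf1r.

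A pair of innate lymphoid genes rose in DN1e. Id2 encodes an inhibitor that binds E proteins and keeps them off DNA, and it is required for innate lymphoid and natural killer cells. Id2 was at 140, 122 and 107 FPKM in DN1e and at 2.90, 5.58 and 5.45 FPKM in DN1 ckit+. The DN1e libraries were alike and far above the rest, since no other library exceeded 17.3 FPKM (log2 difference 4.49 ± 0.86, adjusted p = 0.0204, limma). The call of Id2 ended without DN1 ckit+ 1 (adjusted p = 0.0840) and without DN1 ckit+ 3 (adjusted p = 0.0538). Cxcr6, a chemokine receptor of innate lymphoid and tissue T cells, was at 32.2, 22.8 and 29.6 FPKM in DN1e and at 0.01, 0.0195 and 0.0131 FPKM in DN1 ckit+. Its groups were apart by more than their spread (log2 difference 4.83 ± 0.83, adjusted p = 0.00997), and the other libraries reached 11.8 FPKM. Cxcl16, the gene of its ligand, chosen with its values in view, was at 18.6, 72.8 and 33.5 FPKM in DN1e and at 0.151, 0.0718 and 0.581 FPKM in DN1 ckit+ (adjusted p = 0.0306). That call ended without DN1e 2 (adjusted p = 0.0565) or any 1 DN1 ckit+ library (adjusted p = 0.0702 to 0.0917). Cxcr6 overlaps Fyco1 and Cxcl16 overlaps Zmynd15, and reads where they overlap cannot be told apart, since the strand is not stated.

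Within the innate lymphoid list 2 of 15 tested genes rose, Id2 and Cxcr6, and none fell. DN1e lay wholly above DN1 ckit+ for 5 and wholly below for 1, and the median log2 difference was 0.35. Over all genes tested 0.440% were called higher and 0.253% lower, 7.13% lay wholly above and 9.09% wholly below. Il7r, the receptor chain for interleukin-7 that innate lymphoid cells and early T cells need, was at 29.1, 144 and 33.0 FPKM in DN1e and at 9.93, 11.2 and 3.11 FPKM in DN1 ckit+ (adjusted p = 0.386). Of 5 tested E and Id protein genes Id2 alone was called. Among 8 tested genes of natural killer and cytotoxic cells none was called, and the granule gene Nkg7 was at 0.408, 0.421 and 0.422 FPKM in DN1e, below its 6.64, 2.37 and 29.2 FPKM in DN1 ckit+ (adjusted p = 0.366). None of 8 tested genes of the IL-17 programme in gamma delta T cells was called, with a median log2 difference of 0.21. Il17a itself was at 0.154, 0.144 and 0.01 FPKM in DN1e and at 0.01, 51.9 and 2.98 FPKM in DN1 ckit+, with overlapping groups (adjusted p = 0.491). The programme's regulator Sox13 was at 0.0425, 0.01 and 3.59 FPKM in DN1e and at 6.67, 5.18 and 7.33 FPKM in DN1 ckit+ (adjusted p = 0.543).

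The T cell receptor complex was represented by a single called gene. Cd3e, a signalling chain of the complex, was at 25.0, 60.9 and 72.8 FPKM in DN1e and at 0.0736, 0.261 and 0.0547 FPKM in DN1 ckit+. Every DN1e library exceeded every DN1 ckit+ library (log2 difference 5.45 ± 1.00, adjusted p = 0.0146, limma), though not the highest of the other populations, at 211 FPKM. Cd3d, its neighbour in the complex, was at 18.8, 9.59 and 22.5 FPKM in DN1e and at 0.0219, 0.655 and 0.0717 FPKM in DN1 ckit+ without passing (log2 difference 3.80 ± 1.31, adjusted p = 0.254). Cd3g lay the other way, at 4.20, 6.54 and 3.08 FPKM in DN1e and 14.2, 15.5 and 8.40 FPKM in DN1 ckit+ (adjusted p = 0.795). Of 18 tested genes of the complex and its proximal signalling, 1 rose and 17 did not pass, beside 0.440% of all genes tested called higher. The summed level of the list overlapped, at 161 to 219 FPKM in DN1e and 53.6 to 225 FPKM in DN1 ckit+. Among 213 tested rows picked by name as receptor and immunoglobulin segments, which include the non-segment gene Ighmbp2, only Trbv31 was called. The share of all genes tested that was called higher was 0.440%, and 1 call in 213 rows is near that share. Trbv31, a variable segment of the beta chain, was at 10.7, 85.8 and 110 FPKM versus 0.186, 0.01 and 0.01 FPKM (log2 difference 5.51 ± 1.02, adjusted p = 0.0163). Trgv2, a variable segment of the gamma chain chosen with its values in view, was at 8.20, 63.6 and 19.1 FPKM versus 0.01, 0.202 and 0.01 FPKM (adjusted p = 0.0755, and 0.0429 without DN1e 1). The call of Cd3e ended without DN1 ckit+ 1 or 3 (adjusted p = 0.0540 and 0.0528), and that of Trbv31 without DN1 ckit+ 2 or 3 (adjusted p = 0.0506 and 0.0543).

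The promoters of 5 genes described above are shown because Id2 acts through E proteins, which bind the E-box CANNTG, and because these genes were higher in the same libraries. Each runs from 250 bases before to 50 after the start of transcription, taken from RefSeq on GRCm38.p6, a later build than the mm8 named for the deposited values, and reads 5′ to 3′ on the gene's strand. Capitals mark CANNTG, a motif that reads the same class of letters on either strand, and CAGCTG is one form of it.
Fcer1g promoter, chr1:171234300-171234599, minus strand: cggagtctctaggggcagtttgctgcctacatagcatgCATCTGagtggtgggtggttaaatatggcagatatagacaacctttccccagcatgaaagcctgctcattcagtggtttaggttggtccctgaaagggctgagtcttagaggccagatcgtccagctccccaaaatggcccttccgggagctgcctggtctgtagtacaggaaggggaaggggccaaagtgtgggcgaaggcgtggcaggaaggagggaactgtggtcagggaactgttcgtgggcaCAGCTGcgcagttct
Lyz2 promoter, chr10:117282223-117282522, minus strand: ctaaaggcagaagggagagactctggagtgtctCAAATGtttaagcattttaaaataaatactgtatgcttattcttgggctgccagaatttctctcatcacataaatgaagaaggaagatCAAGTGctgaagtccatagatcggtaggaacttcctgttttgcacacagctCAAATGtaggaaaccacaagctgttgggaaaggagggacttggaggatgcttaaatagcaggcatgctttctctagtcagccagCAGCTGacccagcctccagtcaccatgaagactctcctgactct
Id2 promoter, chr12:25096043-25096342, minus strand: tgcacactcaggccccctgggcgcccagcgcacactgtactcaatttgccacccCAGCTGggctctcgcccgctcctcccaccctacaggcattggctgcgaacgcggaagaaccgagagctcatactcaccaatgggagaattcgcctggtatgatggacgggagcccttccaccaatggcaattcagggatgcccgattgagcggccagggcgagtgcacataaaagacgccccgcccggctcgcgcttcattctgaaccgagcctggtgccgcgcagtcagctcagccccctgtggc
Cxcr6 promoter, chr9:123806227-123806526, plus strand: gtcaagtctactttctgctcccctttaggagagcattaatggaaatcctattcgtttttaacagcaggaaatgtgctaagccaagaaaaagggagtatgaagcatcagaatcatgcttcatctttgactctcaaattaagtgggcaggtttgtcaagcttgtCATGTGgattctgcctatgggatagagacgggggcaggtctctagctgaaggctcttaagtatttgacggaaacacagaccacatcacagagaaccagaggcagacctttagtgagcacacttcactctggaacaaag
Cd3e promoter, chr9:45009562-45009861, minus strand: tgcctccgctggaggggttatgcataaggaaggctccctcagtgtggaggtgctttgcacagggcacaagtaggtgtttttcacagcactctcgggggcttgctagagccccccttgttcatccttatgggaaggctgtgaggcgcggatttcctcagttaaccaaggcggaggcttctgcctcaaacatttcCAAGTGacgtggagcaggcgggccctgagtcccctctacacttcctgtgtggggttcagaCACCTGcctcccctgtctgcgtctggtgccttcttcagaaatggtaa
CANNTG occurred 2 times in the window of Fcer1g, 4 times in that of Lyz2, 1 time in those of Id2 and Cxcr6 and 2 times in that of Cd3e. CAGCTG was found 1 time each for Fcer1g, Lyz2 and Id2 and not for Cxcr6 or Cd3e. Of 32851 promoter windows of the same length, 72.3% held CANNTG and 16.3% held CAGCTG, and most promoters thus have at least 1 CANNTG. A match describes letters and no binding was measured.

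The dendritic cell list had 1 called gene of 8 tested, Batf3. The called share of all genes tested, for this and the other lists of this paragraph, was 0.440% higher and 0.253% lower. Batf3, a transcription factor needed for cross-presenting dendritic cells, was at 10.4, 3.00 and 20.5 FPKM in DN1e but listed at the minimum in all DN1 ckit+ libraries (adjusted p = 0.0426). The call ended without any 1 DN1 ckit+ library (adjusted p = 0.113 to 0.123). Of 8 tested dendritic cell genes DN1e lay wholly above for 5 and wholly below for none, beside 7.13% and 9.09% of all genes tested, with a median log2 difference of 2.40. The list's summed level was 151 to 535 FPKM versus 1.44 to 31.7 FPKM, much of it from Cst3. Naaa, an enzyme of lipid amide breakdown that marks dendritic cells, was at 17.9, 6.97 and 22.4 FPKM in DN1e and at most 0.0326 FPKM in DN1 ckit+ (adjusted p = 0.0545, and 0.0323 without DN1e 2). Cst3, cystatin C, was at 230, 120 and 181 FPKM versus 30.8, 29.8 and 0.0381 FPKM (adjusted p = 0.148). Relb, a member of the NF-kappaB family that dendritic cells need, was at 2.67, 7.04 and 3.13 FPKM versus 0.0217, 0.303 and 0.0103 FPKM (adjusted p = 0.209). None of 9 tested genes of the MHC class II pathway passed, and H2-Eb1, a beta chain of class II, was at 19.3, 10.4 and 6.24 FPKM versus 0.01, 0.01 and 0.561 FPKM (adjusted p = 0.340). No gene was called among 11 of plasmacytoid dendritic cells, 10 of B cells, 6 of erythroid cells and 7 of thymic epithelium. Igkc, the constant segment of the kappa light chain, was nevertheless at 9.76, 78.2 and 14.1 FPKM in DN1e but listed at the minimum in DN1 ckit+ (adjusted p = 0.114), and epithelial genes summed to 28.9 to 42.6 FPKM versus 0.969 to 4.13 FPKM. The part of these cell types in the results was not tested.

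Receptors that guide cells were called only for Cxcr6 among 14 tested, and none of 18 tested cytokine receptor genes was called. The called share of all genes tested was 0.440% higher and 0.253% lower. Ccr9, which brings T-cell progenitors to the thymus, was at 9.93, 10.3 and 5.93 FPKM in DN1e and at 0.01, 0.0211 and 0.0276 FPKM in DN1 ckit+ (adjusted p = 0.518). Tgfbr2, the TGF-beta receptor, was at 14.6, 30.1 and 6.09 FPKM versus 2.82, 4.60 and 2.37 FPKM (adjusted p = 0.486). In both the groups did not overlap, as for 7.13% of all genes tested. Further called genes of defence and survival, named after their values were seen, were P2ry12, a nucleotide receptor of microglia and platelets, at 51.3, 36.4 and 37.2 FPKM versus 2.25, 1.46 and 0.109 FPKM (adjusted p = 0.0307), and Bcl2l1, which encodes the survival protein BCL-XL, at 17, 17.5 and 8.73 FPKM versus 0.413, 0.130 and 0.0861 FPKM (adjusted p = 0.0139). Klrc3, of the NKG2 receptor family, was at 11.2, 5.89 and 40.3 FPKM versus 0.01, 0.01 and 1.56 FPKM (adjusted p = 0.0268). Tspan33, a tetraspanin, was at 20.9, 56.1 and 34.2 FPKM and at most 0.0439 FPKM (adjusted p = 0.00349), and Abcg1, which exports cholesterol from cells such as macrophages, at 18, 43.1 and 23.6 FPKM and at most 0.0492 FPKM (adjusted p = 0.0384). Calls ended without any 1 DN1 ckit+ library for P2ry12 (adjusted p = 0.0551 to 0.122), without any of these or DN1e 2 for Abcg1 (0.0730 to 0.104), without DN1 ckit+ 3 for Bcl2l1 (0.0566) and without DN1 ckit+ 1 or 2 for Klrc3 (0.111 and 0.1). P2ry12 overlaps Med12l and Bcl2l1 overlaps Cox4i2, so their reads are uncertain there.

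One microRNA gene was called, Mirlet7i. The let-7 family restrains growth and stem cell programmes by binding target transcripts through its seed, bases 2 to 8. Capitals mark these positions in both mature strands from RefSeq on GRCm38.p6, 5′ to 3′. They are shown because rows were matched to the family by the seed GAGGUAG. The capitals UGCGCAA mark the same positions of the other strand and are not that seed.
mmu-let-7i-5p, chr10:122985698-122985719, minus strand: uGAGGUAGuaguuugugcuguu
mmu-let-7i-3p, chr10:122985642-122985663, minus strand: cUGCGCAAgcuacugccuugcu
Mirlet7i was at 27.6, 36.2 and 449 FPKM in DN1e 1, 2 and 3 but listed at the minimum in all DN1 ckit+ libraries (adjusted p = 0.00596, limma). DN1e 3 was the highest, and among the other 12 libraries the maximum was 3.81 FPKM. The row reports RNA from the hairpin locus and not the mature microRNA. Of 661 microRNA rows 377 were tested, 1 was called higher and 0 lower, beside 0.440% and 0.253% of all genes tested. By symbol, 9 tested rows were matched to the seed of let-7i-5p. The other 8 matched rows were not called. Mirlet7a-2, a tested let-7 row that the match left out, was not called either. It was at 6.08, 95.9 and 0.01 FPKM in DN1e and at 2.87, 1.73 and 3.18 FPKM in DN1 ckit+. Mirlet7g, with the seed of let-7i-5p, was at 582, 229 and 38.6 FPKM in DN4 and at most 0.0606 FPKM in all DN1e and DN1 ckit+ libraries. Mirlet7i and Mirlet7g were thus high in different populations.

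The largest differences in favour of DN1e fell on genes of many roles. Gjc3, a connexin of gap junctions, was at 242, 240 and 254 FPKM in DN1e and at 0.0245, 0.01 and 0.01 FPKM in DN1 ckit+ (log2 difference 7.92 ± 1.06, adjusted p = 0.00225, limma). Fgf11, an intracellular fibroblast growth factor homologue, was at 77.7, 142 and 579 FPKM versus 0.127, 0.634 and 0.369 FPKM (log2 difference 7.10 ± 1.00, adjusted p = 0.00301). Lhx4, a homeobox factor of pituitary development, was at 134, 110 and 106 FPKM versus 0.0102, 0.225 and 0.01 FPKM (log2 difference 6.76 ± 0.98, adjusted p = 0.00313). Each of these kept the 3 DN1e libraries above all others, which reached 24.7, 9.73 and 15.6 FPKM. Pcdh20, a protocadherin, was at 122, 78.1 and 171 FPKM and at most 0.0516 FPKM in DN1 ckit+ (adjusted p = 0.00385). Det1, of an E3 ubiquitin ligase complex, was at 41.4, 93.4 and 51.3 FPKM but listed at the minimum in DN1 ckit+ (adjusted p = 0.00138).

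The calls of further genes among the 15 largest ended when single libraries were left out. That also leaves fewer libraries in the group, and the direction of each gene stayed. Zc3h10, a zinc finger gene, was at 446, 878 and 623 FPKM in DN1e and at 15.7, 9.43 and 4.02 FPKM in DN1 ckit+ (adjusted p = 0.0414). Leaving out any 1 of the 6 libraries ended its call (adjusted p = 0.0559 to 0.144). Plcxd3, a phospholipase-like gene, was at 640, 598 and 6.32 FPKM versus 0.0624, 0.599 and 0.01 FPKM (adjusted p = 0.0407), and Grhl2, an epithelial transcription factor, at 110, 150 and 24.9 FPKM versus at most 0.0191 FPKM (adjusted p = 0.0446). DN1e 3 was the lowest of its population for both, and both calls ended without DN1e 1, DN1e 2 or any DN1 ckit+ library (adjusted p = 0.0872 to 0.119 for Plcxd3 and 0.0924 to 0.116 for Grhl2). Slitrk2, a neuronal adhesion gene, was at 53.7, 85.5 and 62.9 FPKM in DN1e (adjusted p = 0.0327), and Ms4a5, of the family of Ms4a2, at 227, 10.5 and 104 FPKM (adjusted p = 0.0165). Both were listed at the minimum in DN1 ckit+. The call of Slitrk2 ended without DN1e 2 or any DN1 ckit+ library (adjusted p = 0.0654 to 0.0905), and that of Ms4a5 without DN1 ckit+ 1 or 3 (adjusted p = 0.0551 and 0.0531).

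Sri, the calcium-binding protein sorcin, was at 193, 185 and 205 FPKM in DN1 ckit+ and at 0.0461, 0.01 and 0.697 FPKM in DN1e (log2 difference -7.33 ± 0.84, adjusted p = 0.000860, limma). Acat3, an acetyl-CoA acetyltransferase gene, was at 112, 142 and 121 FPKM versus 0.01, 0.01 and 0.0206 FPKM (log2 difference -6.95 ± 1.22, adjusted p = 0.0114), and it overlaps Tcp1. Hmgb3, a chromatin protein of haematopoietic progenitors, was at 127, 112 and 168 FPKM versus 0.01, 0.01 and 0.0171 FPKM (log2 difference -7.06 ± 1.36, adjusted p = 0.0209). Outside the contrast Hmgb3 was at 228 and 181 FPKM in DN1ab and at 51.8, 69.5 and 23.5 FPKM in DN4. It was at 95.0, 65.5 and 0.0117 FPKM in DN2 and at most 2.93 FPKM in DN1d and ImmV2. Sp100, a nuclear body protein, was at 2040, 675 and 350 FPKM in DN1 ckit+ but listed at the minimum in all DN1e libraries (adjusted p = 0.0121). Ankrd52, a subunit of a protein phosphatase, was at 1580, 1580 and 1970 FPKM in DN1 ckit+ and at 0.01, 117 and 0.01 FPKM in DN1e (log2 difference -8.43 ± 1.68, adjusted p = 0.0265). Calls ended without any 1 DN1 ckit+ library for Hmgb3 (adjusted p = 0.0523 to 0.0697), without DN1 ckit+ 1 for Sp100 (0.0551), and without DN1e 1, DN1e 3 or any DN1 ckit+ library for Ankrd52 (0.0684 to 0.0770).

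The next lower genes had varied roles. Gpr56, an adhesion receptor of haematopoietic stem cells and cytotoxic lymphocytes, was at 81.3, 70.2 and 61.8 FPKM in DN1 ckit+ and at 3.02, 0.0117 and 0.0116 FPKM in DN1e (log2 difference -5.48 ± 0.96, adjusted p = 0.0114). Among the other 12 libraries it reached 5.86 FPKM, so the 3 DN1 ckit+ libraries stood above the remaining 15. Mll5, also called Kmt2e and required for normal blood stem cells, was at 122, 82.7 and 117 FPKM versus 14.9, 0.01 and 0.01 FPKM (adjusted p = 0.0280). Outside the contrast Mll5 was listed at the minimum in both DN1ab libraries and was at 50.1 to 58.1 FPKM in DN4, and it overlaps Srpk2. Rap1b, a small GTPase of integrin signalling, was at 85.3, 69.8 and 23.5 FPKM versus 0.01, 0.01 and 0.562 FPKM (adjusted p = 0.0146). Ebf3, a relative of the B cell factor EBF1, was at 39.8, 33.3 and 78.8 FPKM versus 0.01, 0.400 and 0.01 FPKM (adjusted p = 0.0204). Eif4a3, the helicase of the exon junction complex, was at 60.6, 106 and 489 FPKM versus 0.0158, 0.01 and 0.402 FPKM (adjusted p = 0.00760). Sephs1, a selenophosphate synthetase gene, was at 75.8, 20.9 and 73.7 FPKM versus 0.01, 0.01 and 0.935 FPKM (adjusted p = 0.00693). All of them kept the groups apart. Calls ended without DN1e 2, DN1e 3 or any DN1 ckit+ library for Mll5 (adjusted p = 0.0619 to 0.0869), without DN1 ckit+ 1 or 2 for Rap1b (0.0670 and 0.0528) and without DN1 ckit+ 3 for Ebf3 (0.0606).

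The calls of the other 4 genes among the 15 most negative ended when single libraries were left out. That also leaves fewer libraries in the group, and the direction of each gene stayed. Slc9a7, a sodium-proton exchanger of the Golgi, was at 130, 110 and 152 FPKM in DN1 ckit+ and at 0.0168, 0.940 and 0.172 FPKM in DN1e (adjusted p = 0.0245), and it overlaps Chst7. Bex6 was at 46.0, 51.6 and 56.6 FPKM (adjusted p = 0.0268) and the pseudogene Rpl36-ps2 at 99.3, 66.1 and 78.3 FPKM (adjusted p = 0.0407), both listed at the minimum in DN1e. Rpl26-ps5, also a pseudogene, was at 40.6, 84.9 and 35.8 FPKM versus 0.01, 0.986 and 0.01 FPKM (adjusted p = 0.0361). Reads of ribosomal pseudogenes may come from their parent genes, and Rpl36-ps2 lies within Abr, so both are uncertain. Leaving out DN1e 1 or any DN1 ckit+ library ended the call of Slc9a7 (adjusted p = 0.0525 to 0.0757), DN1e 2 or any DN1 ckit+ library that of Bex6 (0.0503 to 0.0800), any of the 6 libraries that of Rpl36-ps2 (0.0639 to 0.119), and any but DN1e 2 that of Rpl26-ps5 (0.0642 to 0.119).

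Further called genes lower in DN1e, picked after seeing their values, had roles in hormones, matrix and repair. Tshb, the beta subunit of thyrotropin, a pituitary hormone that some blood cells also express, was at 16.5, 19.7 and 23.0 FPKM in DN1 ckit+ but listed at the minimum in DN1e (adjusted p = 0.00181). No other library exceeded 0.351 FPKM. Has2, a hyaluronan synthase gene, was at 2.10, 1.97 and 2.75 FPKM versus 0.0584, 0.0138 and 0.01 FPKM (log2 difference -1.66 ± 0.31, adjusted p = 0.0163). Its antisense partner Has2as was at 12, 14.4 and 19.4 FPKM but listed at the minimum in DN1e (adjusted p = 0.00302). The call of Has2 ended with only the 6 libraries (adjusted p = 0.342), with no trend (0.135) and on the deposited values (0.0826), and with a pseudocount of 5 FPKM its log2 difference was -0.53. With only the 6 libraries adjusted p was 0.170 for Has2as, 0.131 for Tshb, 0.0997 for Psma8 and 0.0998 for Mgmt. The strand of the libraries is not stated, so the reads of the Has2 pair cannot be told apart. Psma8, a proteasome subunit of germ cells, was at 35.4, 47.3 and 16.6 FPKM but listed at the minimum in DN1e (adjusted p = 0.00760). Mgmt, which repairs alkylated DNA, was at 39.6, 28.5 and 42.5 FPKM versus 0.455, 0.337 and 0.752 FPKM (log2 difference -4.63 ± 0.82, adjusted p = 0.0121). Tat, the liver enzyme tyrosine aminotransferase, was at 28.9, 12.7 and 11.7 FPKM versus 0.664, 0.0498 and 0.01 FPKM (adjusted p = 0.0488), and Dync1h1, the dynein heavy chain, at 26.6, 44.8 and 30.4 FPKM versus 0.0173, 0.01 and 0.0577 FPKM (adjusted p = 0.0438). Leaving out any 1 of the 6 libraries ended the calls of Tat (adjusted p = 0.0535 to 0.115) and Dync1h1 (adjusted p = 0.0636 to 0.127).

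**Figure D3:**
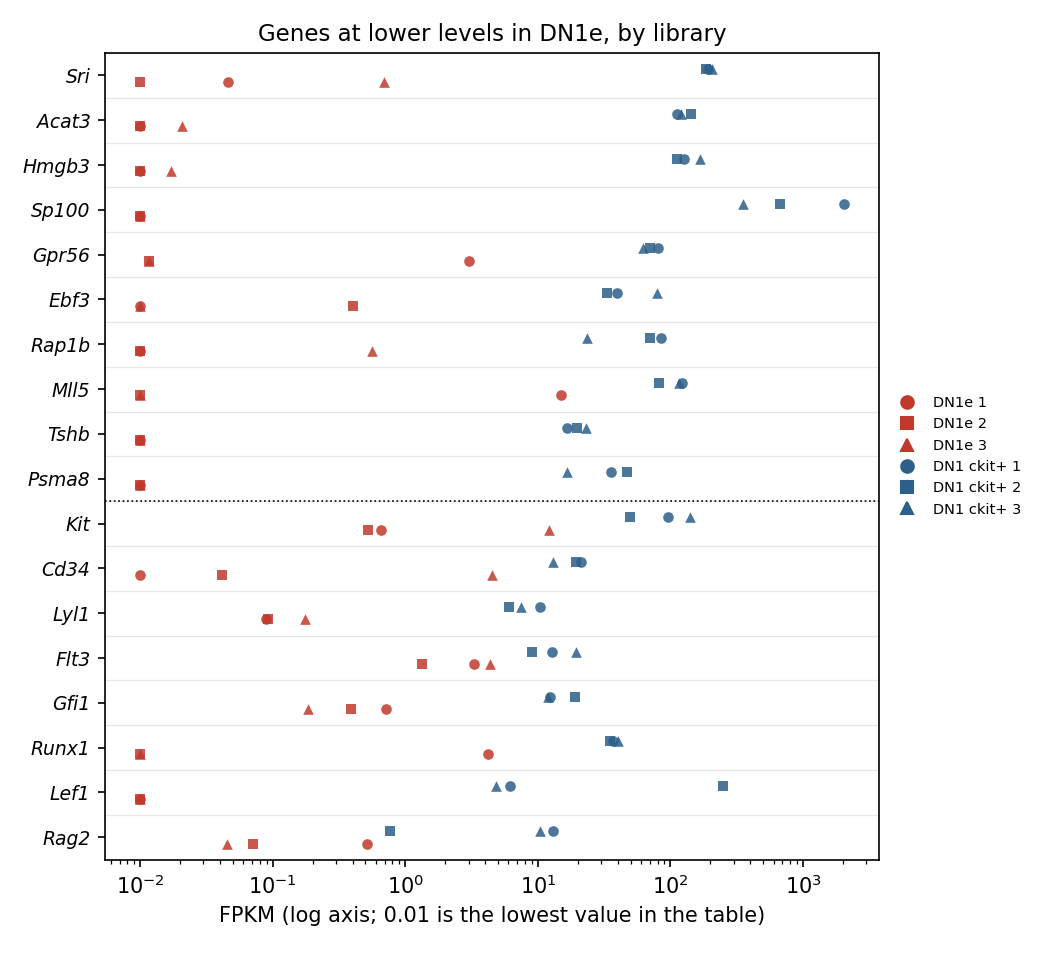
FPKM on a log axis for genes at lower levels in DN1e, 1 point per DN1e (red) or DN1 ckit+ (blue) library, with genes that passed the test above the dotted line and Kit and the progenitor and T-lineage genes that did not pass below it. Sri lies between 185 and 205 FPKM in DN1 ckit+ and at 0.697 FPKM or less in DN1e, and Lef1 is listed at 0.01 FPKM in all DN1e libraries.

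None of 18 tested genes of the early progenitor list was called in either direction. Only 0.693% of all genes tested were called, so a count of none in a list this small says little. DN1e lay wholly below DN1 ckit+ for 6 of them and wholly above for none, 4 had a positive difference, and the median log2 difference was -0.80. Cd34, a surface mark of progenitors, was at 21.1, 19.4 and 13.0 FPKM in DN1 ckit+ and at 0.01, 0.0416 and 4.51 FPKM in DN1e (log2 difference -3.36 ± 0.97, adjusted p = 0.159, and 0.0493 without DN1e 3). Lyl1, a basic helix-loop-helix factor of early T progenitors, was at 10.3, 6.11 and 7.5 FPKM versus 0.0891, 0.0927 and 0.176 FPKM (adjusted p = 0.316). Lmo2, a partner of basic helix-loop-helix factors in blood progenitors, lay the other way, at 83.8, 0.01 and 2.67 FPKM in DN1e and at the minimum in all DN1 ckit+ libraries (adjusted p = 0.350). Flt3, the cytokine receptor of multipotent progenitors, was at 12.8, 9.11 and 19.3 FPKM in DN1 ckit+ versus 3.30, 1.33 and 4.38 FPKM in DN1e (adjusted p = 0.351). The groups overlapped for Lmo2 and were apart for Cd34, Lyl1 and Flt3, as for 9.09% of genes tested.

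Among 12 tested T-lineage commitment factors none was called. With 0.693% of all genes tested called, a count of none says little here or in the other small lists of this paragraph. DN1e lay wholly above for 2 and wholly below for 3, beside 7.13% and 9.09% of all genes tested. Gfi1, a repressor of myeloid genes, was at 12.4, 19.1 and 12 FPKM in DN1 ckit+ and at 0.712, 0.391 and 0.186 FPKM in DN1e (log2 difference -3.42 ± 1.00, adjusted p = 0.166). Runx1, needed at the start of T cell development, was at 36.6, 34.9 and 40.0 FPKM versus 4.18, 0.01 and 0.01 FPKM (adjusted p = 0.330). Lef1, a partner of TCF1, was at 6.20, 249 and 4.85 FPKM but listed at the minimum in all DN1e libraries (adjusted p = 0.275). Bcl11b, the factor that completes commitment, lay the other way at low levels, 0.905, 1.22 and 6.99 FPKM in DN1e against 0.0277, 0.217 and 0.0294 FPKM (adjusted p = 0.561). None of 8 tested recombination and pre-TCR genes was called, and Rag2, a subunit of the recombinase, was at 13.1, 0.768 and 10.4 FPKM in DN1 ckit+ and at 0.511, 0.0715 and 0.0453 FPKM in DN1e (adjusted p = 0.335). None of 8 tested Notch receptors and targets was called or had groups wholly above or below, with a median log2 difference of -0.13. None of 25 tested cell cycle genes was called, with a median log2 difference of -0.96. DN1e lay wholly above for 2 and wholly below for 3, beside the same 7.13% and 9.09%. Their summed levels were 51.0 to 714 FPKM in DN1e and 169 to 443 FPKM in DN1 ckit+.

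The called genes were set beside the 12 libraries outside the contrast, as a description with no test. The same counts over all genes tested were not made, so no count here shows that the called genes are unusual. For 93 of the 108 the DN1e libraries were above all other 12, and for 31 none of the 12 reached 1 FPKM. Those 31 passed the filter only through the libraries compared here, as did 11 of the 62 genes called lower. Genes with at least 1 FPKM in just 1 of the 12, such as C1qa and Mirlet7i, also needed the compared libraries to pass. Of all 108 higher genes, both DN1d libraries had at least 1 FPKM for 19, both DN1ab libraries for 14, all DN4 libraries for 7 and all DN2 libraries for 5. The genes called lower were shared more widely. For 29 of the 62 the DN1 ckit+ libraries were above all other 12, and all DN2 libraries had at least 1 FPKM for 26, all DN4 libraries for 23, both DN1ab libraries for 21 and both DN1d libraries for 16. In the opposite group, 16 of the higher genes were listed at the minimum in all DN1 ckit+ libraries and 17 of the lower genes in all DN1e libraries. Clone or predicted names made up 38 of the higher and 24 of the lower genes, and 5 of the lower genes were olfactory or vomeronasal receptor genes.

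**Figure D4:**
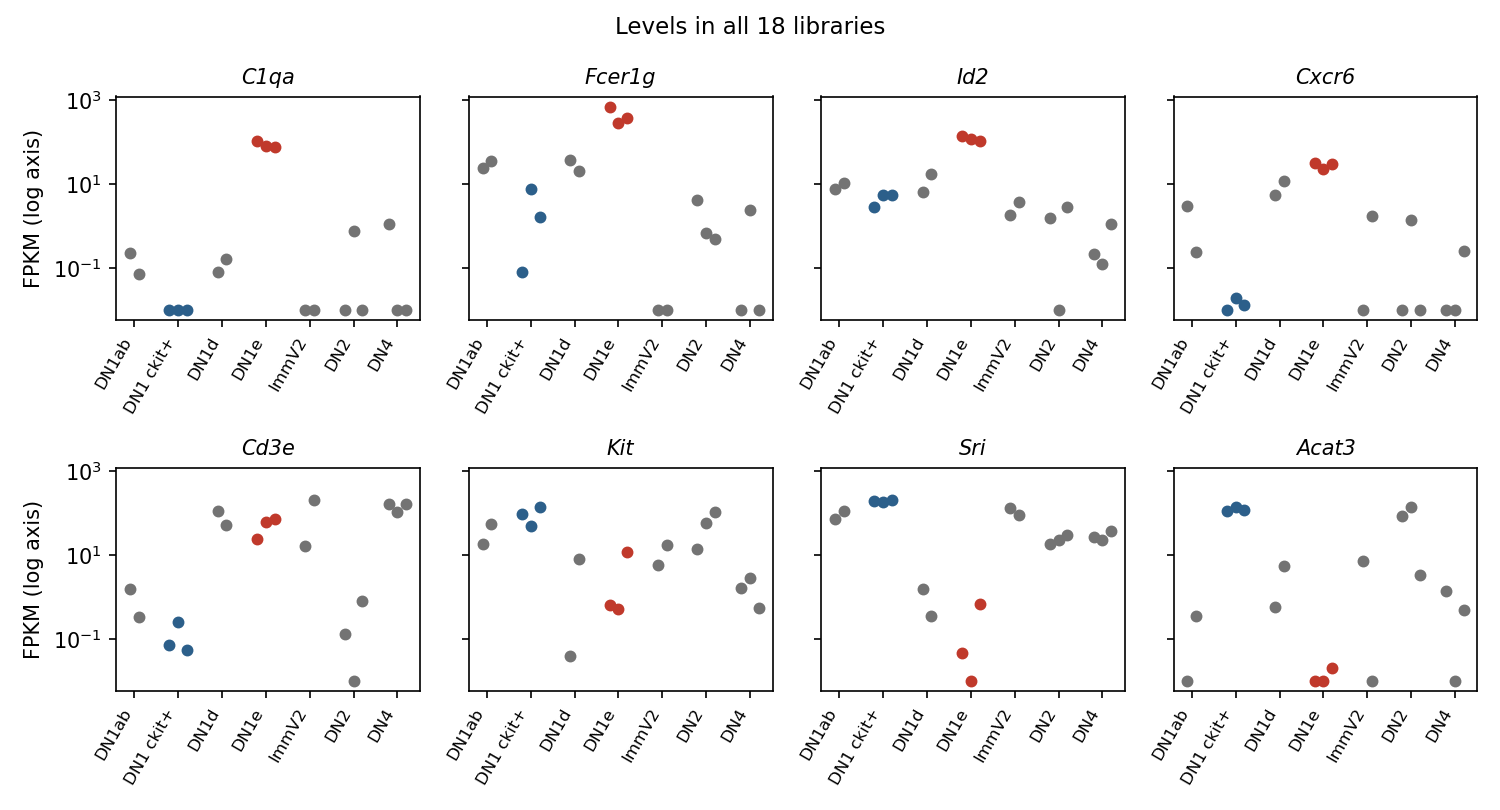
FPKM on a log axis in all 18 libraries by population for 8 genes, 1 point per library, with DN1e in red and DN1 ckit+ in blue. C1qa, Fcer1g and Id2 are highest in the 3 DN1e libraries, whereas Cd3e reaches 211 FPKM outside DN1e and Sri was lowest in DN1e and DN1d.

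Whether the number of calls held was read across the alternatives. The lower calls ranged from 46 to 84 when 1 of the 6 libraries was left out and the higher calls from 54 to 290. Higher calls were more numerous without any 1 DN1e library and fewer without any 1 DN1 ckit+ library. Of the 60 called genes named here, 6 passed under all 17 alternatives and none changed direction. Kit, Cd34, C1qb, Ctss, Naaa and Trgv2, 6 genes that did not pass, did so under at least 1 alternative.

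**Figure D5:**
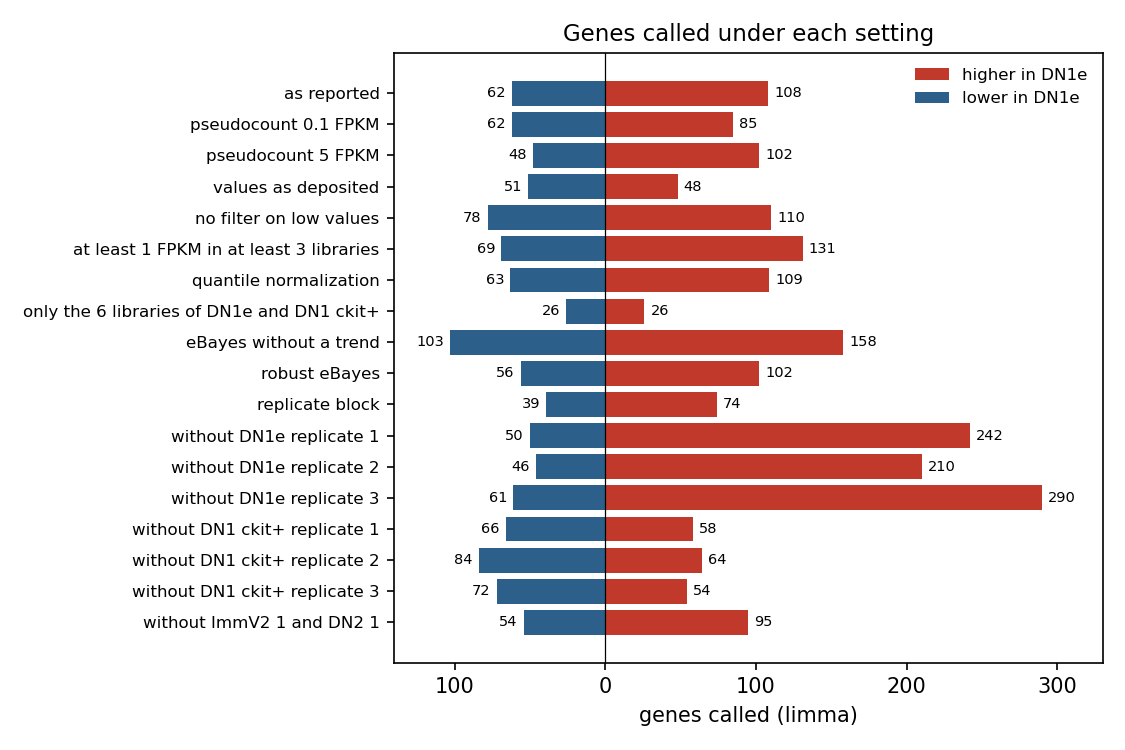
Number of genes called higher (red, to the right) and lower (blue, to the left) in DN1e under each processing choice, with the count beside each bar. Leaving out DN1e 3 gave the most higher calls, 290, and using only the 6 libraries of the comparison gave 26 in each direction.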

How the data were processed

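Expression was deposited by the authors as log2 FPKM with 1 row per gene symbol. The submitters' processing notes name Bowtie and the mouse build mm8. How genes were annotated, quantified, normalized and reduced to 1 row is not given in the sources used here, and high values recur between libraries as if placed on a shared scale. From the deposited values, FPKM plus a pseudocount of 1 was put back on a log2 scale, a scale that shrinks differences between low levels. A filter kept rows reaching 1 FPKM in 2 or more of the 18 libraries, 24525 in all. limma 3.58.1 (R 4.3.3, eBayes with a trend) fitted the 7 population means together and gave two-sided p-values, adjusted by the Benjamini-Hochberg method over every row kept. The depth is unknown, so no counting interval is given, and the mean and SD are replaced by each library's value.

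The genes named are the 15 called ones of most positive and the 15 of most negative log2 difference, passing over clone and predicted names, the gate genes, called members of 24 gene lists and up to 4 further members by unadjusted p, and called receptor segments and microRNAs; some genes the rule names are not reported here. The lists hold marker genes of other cell types that a sort could include. The comparison and the lists were chosen with earlier results of these data known. Genes outside the rule were chosen after their values were seen, as were the gene pairs of overlapping loci: Mitf, Tfec, Ctsb, Cd63, Slc11a1, Clec7a, Tlr8, Hmox1, Ccl2, Csf1, Cxcl16, Tspan33, Klrc3, Ear1, Abcg1, P2ry12, Bcl2l1, Has2, Has2as, Tshb, Tat, Psma8, Dync1h1, Mgmt, Cd3g, C1qc, Csf1r, Emr1, Mirlet7a-2, Mirlet7g and Trgv2. Alternatives changed the pseudocount, the filter, the normalization, the libraries in the fit, the variance model and the replicate block, and left out each of the 6 libraries in turn. Leaving out ImmV2 1 and DN2 1 together, which have the most rows at the lowest value, was chosen after seeing the data.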

Additional observations from a re-analysis of the deposited data

How the results depend on the processing

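Both counts of calls, 108 higher and 62 lower, stayed within 1.5 times under 7 of the 17 alternatives and not under the other 10. Values as deposited gave 48 higher, and only the 6 libraries gave 26 higher and 26 lower, 32 of these 52 shared with the reported calls; there 15923 genes were tested and 1819 had an unadjusted p under 0.05. Without a trend in eBayes 103 were lower. Leaving out 1 library gave 54 to 290 higher and 46 to 84 lower. The replicate block left 74 higher and 39 lower, but numbers do not pair the libraries: deviations of same-numbered libraries correlated at -0.0108, -0.00715 and -0.00634. Of 60 named called genes, 32 lost their call as deposited, 18 with a pseudocount of 0.1 FPKM and 17 under the block. The log2 differences of Il2ra and C1qc, neither called, ranged from -1.28 to 0.11 and from -2.26 to 0.78 when 1 library was left out, turning positive without DN1e 3. The cause of these shifts was not tested. How far depth limits low levels is unknown, since the files hold no counts.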
